A study of Mus musculus with 9 samples.

Results

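Mouse knee joints that had their anterior cruciate ligament cut and then received a lentivirus expressing Luc were compared with knee joints labelled Non surgery. The comparison used 6 of the 9 RNA sequencing libraries of the study, chosen by their labels alone: 3 Luc and 3 Non surgery libraries. The remaining 3 libraries, from operated joints given a virus expressing PC2, were not part of the contrast. They did enter the filter on low counts, the scaling of libraries and the estimate of spread. For the Luc group, male C57BL/6 mice had anterior cruciate ligament transection (ACLT) at 8 weeks of age. The virus went into the joint cavity 1 week after the operation, and the joints were taken another 8 weeks later. For the Non surgery group the labels give the tissue and the absence of surgery, and neither the age of these mice nor any injection is stated there. No group analysed here had the operation without virus or the virus without the operation, so the parts played by surgery, virus, injection and age cannot be told apart. Libraries of a group are 3 technical repeats of mixed RNA. Each group is therefore 1 pool, of a number of mice that was not given, and every SD and p-value below covers technical spread and holds no difference between mice.

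A knee sample holds cartilage, bone with its marrow, ligament, tendon, synovium, fat and some of the surrounding skeletal muscle. Cutting the ligament makes the joint unstable, and the model is known for wear of articular cartilage, thickening of the synovium, remodelling of the bone below the cartilage and bony outgrowths that form by way of cartilage. Chondrocytes keep cartilage by making type II collagen and aggrecan, and enzymes of the matrix metalloproteinase and ADAMTS families break these down. In whole tissue, fewer cells of a type and less RNA per cell cannot be told apart, and a rise in the share of one tissue lowers the share of the others.

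Genes of cartilage, bone and connective tissue matrix and several rapidly induced genes were higher in Luc joints, and skeletal muscle genes were lower. Among the 17478 tested genes 58.8% had an adjusted p under 0.05 (edgeR's quasi-likelihood test with Benjamini-Hochberg adjustment), 31.1% higher and 27.7% lower in Luc. With a fold change of at least 2 asked as well, 1648 genes were higher (9.43%) and 1104 lower (6.32%). All 3 Luc libraries lay above all 3 Non surgery libraries in 33.1% of genes and below them in 29.8%, or 62.9% in sum. These shares are the background for each count of list members that follows, where "rose" and "fell" mean an adjusted p under 0.05. The median log2 fold change of all genes, Luc minus Non surgery, was 0.025 on the scale of trimmed-mean (TMM) library factors (25th percentile -0.30, 75th percentile 0.37). The adjusted p was passed by 5431 genes higher and 4848 lower, by 7754 and 3304 with scaling by library size alone, and by 4866 and 5062 in a fit of the 6 libraries alone, where the balance was the reverse. Scaling by library size alone moved the median to 0.19 and the 2-fold counts to 2065 higher and 824 lower, so fold changes are relative to the TMM scale. Differences of at least 10-fold were seen for 48 genes that rose and 38 that fell. Levels are given in CPM, read counts brought to a common library size with the TMM factors, each as a mean with its SD over 3 libraries or for each library in the order of the repeats.

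The 6 libraries held 17835989 to 18679743 counts in genes, and between 24085 and 25026 genes had at least 1 count. Of gene counts and the summary lines of the counting together, reads outside annotated genes took 7.33% ± 0.04 (SD, n = 3) in Non surgery and 9.08% ± 0.18 in Luc. Muscle fibre genes took 5.74% ± 0.13 of gene counts in Non surgery and 2.62% ± 0.02 in Luc, genes of the mitochondrial genome 9.94% ± 0.92 and 5.33% ± 0.42, and haemoglobin genes 1.98% ± 0.10 and 1.32% ± 0.14. Connective tissue collagens went the other way, from 0.75% ± 0.04 to 3.58% ± 0.07 of gene counts, and cartilage matrix genes from 0.20% ± 0.01 to 0.97% ± 0.01. The part of these shifts in tissue share in the results below was not tested. Markers of cartilage, bone, marrow and muscle were present in all 6 libraries, while markers of skin and liver were mostly under the filter on low counts. Of 7 keratinocyte markers 1 passed the filter, at no more than 0.899 CPM in any Non surgery library and 0.988 CPM in any Luc library, with Krt5 and Krt14 at 0 or 1 count per library. Of 6 hepatocyte markers 1 passed the filter, at 10.1 to 12.2 CPM in Non surgery and 8.999 to 14.5 CPM in Luc, which overlap, and Alb had 0 to 7 counts. Summed levels of marker lists below cover the members that passed this filter.

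**Figure D1:**
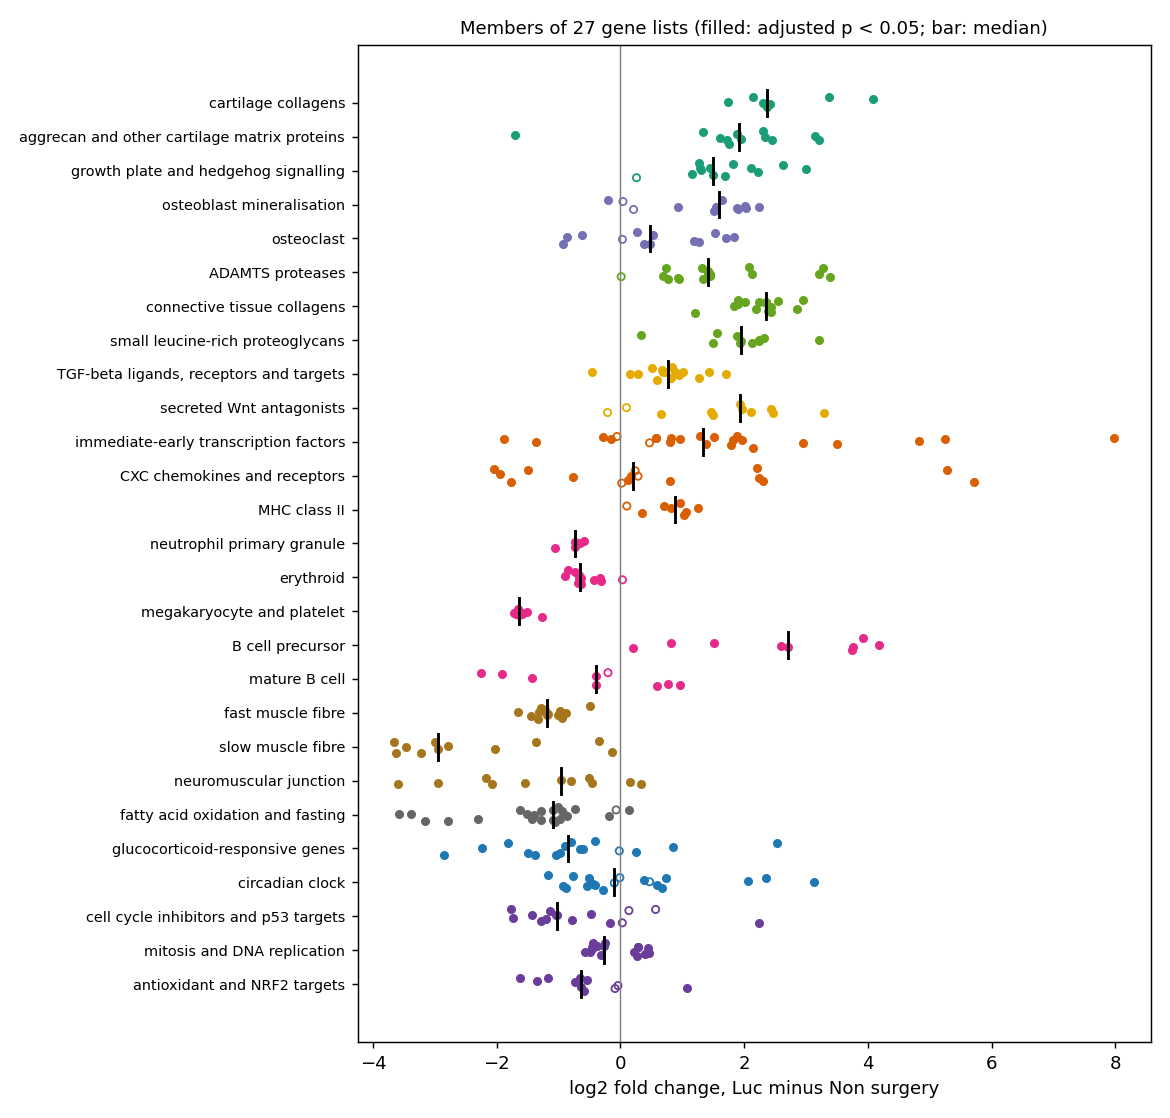
Each point is the log2 fold change (Luc minus Non surgery, horizontal axis) of 1 member of 27 gene lists (rows); filled points passed an adjusted p of 0.05 and black bars mark list medians. The cartilage, collagen and B cell precursor lists lie to the right, with medians of 2.37, 2.35 and 2.71, and the muscle, megakaryocyte and fatty acid oxidation lists to the left.

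Cartilage matrix genes were higher in Luc joints with few exceptions. All 7 genes for the collagens of cartilage rose, with a median log2 fold change of 2.37 against 0.025 for all genes. Col2a1, which encodes the main fibrillar collagen of cartilage (GRCm38, chr15:97975602-98004695), had 226, 234 and 201 CPM in the Non surgery libraries and 2231, 2277 and 2308 CPM in the Luc libraries. The groups stood far apart, and the log2 fold change was 3.37 ± 0.043 (SE; adjusted p = 1.16e-18, edgeR's quasi-likelihood test). Its partner on the fibril surface, Col9a1, rose by 4.08 ± 0.060, ahead of Col9a2 and Col9a3 with 2.37 and 2.41. Acan, the core protein of the large proteoglycan that holds water in cartilage, had 151, 167 and 156 CPM in Non surgery and 395, 395 and 405 CPM in Luc. It also separated the groups, but by 2.52-fold. Within a library the ratio of Col2a1 to Acan CPM was 1.39 ± 0.11 (SD, n = 3) in Non surgery and 5.70 ± 0.06 in Luc, with no overlap (exact permutation test, two-sided p = 0.1, the smallest that 3 libraries against 3 allow).

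Among 12 genes for aggrecan, link protein, matrilins and other cartilage matrix proteins, 11 rose (median 1.92). Matn4 rose by 3.14, Cilp2 by 2.45, Matn3 by 2.34 and Comp, a pentameric protein that binds collagen fibrils, by 2.30. The exception was Matn1, a matrilin typical of non-articular and growth cartilage, which had 3.60, 3.33 and 2.94 CPM in Non surgery and 0.988, 1.16 and 0.862 CPM in Luc. All Luc values lay below all Non surgery values, and its log2 fold change was -1.70 ± 0.21. All 6 tested genes for small cartilage proteins rose, yet by very different amounts. Snorc, a transmembrane proteoglycan of chondrocytes, rose by 2.37 and Cnmd, which encodes the vessel-inhibiting chondromodulin, by 1.99, whereas Cytl1 rose by 0.13. Of 12 skeletal transcription factors, 8 rose and 2 fell (median 1.0). Sox9 and Sox5, which switch on Col2a1 and Acan, rose by 1.84 and 1.63, while their relative Sox6, which is also made in muscle, fell by 0.73. Trps1, a repressor of the growth plate, rose by 1.85 and Nkx3-2, which holds back chondrocyte maturation, by 1.76. Runx2, the factor of hypertrophic chondrocytes and osteoblasts, rose by 0.98.

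Genes of the growth plate and of hedgehog signalling were raised as a group, 12 of 13 (median 1.49) and each of the 12 by at least 2-fold. In this circuit, prehypertrophic chondrocytes secrete Indian hedgehog, which acts through the receptor pair Ptch1 and Smo and the Gli factors, and parathyroid hormone-related protein restrains maturation in return. The ligand gene Ihh had 2.58, 2.76 and 2.10 CPM in Non surgery and 7.74, 6.40 and 6.30 CPM in Luc. The target genes that report the pathway moved in the same direction without overlap. Gli1 had 5.58, 5.23 and 5.17 CPM in Non surgery and 23.8, 21.7 and 23.1 CPM in Luc, a log2 fold change of 2.10 ± 0.079. Hhip, a decoy that binds hedgehog at the cell surface, rose by 2.23 ± 0.11 and Ptch1 by 1.27 ± 0.040. Smo rose by 1.31, Gli2 by 1.29 and Gli3 by 1.68. On the restraining arm, Pthlh rose by 1.49 and its receptor gene Pth1r by 1.83. Col10a1, the collagen of hypertrophic cartilage, rose from 59.9 ± 4.84 to 478 ± 4.52 CPM. All 7 genes listed for the articular surface zone rose, from 0.48 for Erg to 2.63 for Abi3bp, with Prg4, the gene for the lubricant lubricin, at 1.45. Gdf5, a joint-forming signal, had only 12 counts in the 3 Non surgery libraries and 57 in the 3 Luc libraries, and 40.3% of its exon bases are shared with another gene.

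Bone-forming genes rose with the cartilage genes. Of 12 osteoblast genes 9 rose and 1 fell (median 1.6), led by Omd (2.25), the sphingomyelinase gene Smpd3 (2.02) and Alpl (2.01), the phosphatase that frees phosphate for mineral. Of the osteocyte genes, 5 of 6 rose and 1 fell. Sost, which encodes the Wnt inhibitor sclerostin, had 8.69, 8.28 and 7.51 CPM in Non surgery and 30.3, 31.1 and 31.6 CPM in Luc. Phex rose by 1.55, Mepe by 1.27 and Dmp1 by 0.90. Fgf23, the osteocyte hormone that lowers blood phosphate, went the opposite way, with 48, 49 and 44 counts in the Non surgery libraries and 2, 2 and 3 counts in the Luc libraries. Its summed, depth-scaled counts were 22.5 times higher in Non surgery (95% exact counting interval 10.7 to 57.0). The osteocyte list was thus split by a single gene.

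Osteoclast genes were mixed, with 9 of 13 higher, 3 lower and a median of 0.48. Those for collagen breakdown and for cell fusion rose most: Ctsk, the main collagen-cutting cathepsin of osteoclasts, by 1.83, Ocstamp by 1.70 and Dcstamp by 1.52. Itgb3, a chain of the integrin that seals the osteoclast to bone and also of the platelet fibrinogen receptor, had 376, 388 and 385 CPM in Non surgery and 199, 198 and 208 CPM in Luc. Calcr, the calcitonin receptor, fell by 0.87 and Car2, a carbonic anhydrase shared with red cells, by 0.62. Of the 6 genes of the RANKL and M-CSF axis, which drives osteoclast formation, 5 rose and 1 fell. The ligand gene Tnfsf11 (RANKL) rose by 1.62 from 3.47 ± 0.14 CPM and its decoy Tnfrsf11b (osteoprotegerin) by 1.82 from 23.1 ± 1.86 CPM. Their CPM ratio was 0.15 ± 0.02 in Non surgery and 0.13 ± 0.01 in Luc, and the libraries overlapped (exact permutation test, two-sided p = 0.2).

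Fibrous matrix genes rose with little exception. All 15 connective tissue collagens rose at least 2-fold (median 2.35). Col3a1, the collagen of loose and healing tissue, had 798, 812 and 700 CPM in Non surgery and 5877, 6127 and 5924 CPM in Luc. No library came near the other group, and the log2 fold change was 2.96 ± 0.042. Col1a1 and Col1a2, the 2 chains of type I collagen, each rose by 1.89, and their ratio was 0.89 ± 0.01 in Non surgery and 0.89 ± 0.02 in Luc. The ratio of Col3a1 to Col1a1 was 0.25 ± 0.01 in Non surgery and 0.52 ± 0.01 in Luc (exact permutation test, p = 0.1, the smallest possible here). All 14 genes for collagen crosslinking and hydroxylation rose, led by the lysyl oxidase relatives Loxl4 (2.75) and Loxl2 (2.72), the prolyl hydroxylase subunit P4ha3 (2.15) and Plod2 (2.07), which sets the crosslinks typical of fibrosis and bone. All 11 tested small leucine-rich proteoglycans rose (median 1.95), among them Lum (2.33), Aspn (2.25) and Dcn (1.55), which space collagen fibrils.

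Of 14 elastic fibre genes 13 rose, with Fbn2 (2.53) and Mfap2 (2.52) ahead of Eln (1.26). All 7 tendon and ligament genes rose, including the tenocyte factors Scx (1.66) and Mkx (1.6) and Tnmd (2.16). This list also holds Egr1, Fmod, Kera and Thbs4, which are counted in other lists as well. Of 12 matricellular proteins 11 rose, led by Thbs2 (2.57) and Tnc (2.04), while Thbs1, which platelets store, fell by 0.36. The basement membrane list was less uniform, with 13 of 22 higher, 4 lower and a median of 0.46. Its 4 falls became 0 under scaling by library size alone, 1 without Non surgery replicate 2 and 2 without Luc replicate 1.

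Most proteases that cleave matrix rose, and their inhibitors were split. Of 14 tested matrix metalloproteinases, 11 rose and 2 fell (median 0.97). Mmp3, or stromelysin, which cleaves proteoglycans and activates other proteases, had 6.71, 5.69 and 5.65 CPM in Non surgery and 117, 106 and 114 CPM in Luc. It rose 18.7-fold with no overlap, and was followed by the collagenase Mmp13 (2.29), the membrane protease Mmp14 (2.24) and the gelatinase Mmp2 (1.93). Mmp8, the collagenase of neutrophils, fell by 0.64 and Mmp25, also of neutrophils, by 0.28. Of 17 ADAMTS proteases 16 rose and 0 fell (median 1.41). The aggrecanase gene Adamts4 had 1.62, 2.24 and 3.12 CPM in Non surgery and 22.5, 22.9 and 22.4 CPM in Luc, a log2 fold change of 3.28 ± 0.13. The other main aggrecanase, Adamts5, rose by 0.68. Adamts18 and Adamts16, less studied members, rose as much as Adamts4, by 3.39 ± 0.12 and 3.20 ± 0.12. Of 5 inhibitors, Timp2 rose by 1.62, Timp1 by 1.40 and Reck by 0.60, whereas Timp3, which blocks aggrecanases, fell by 0.33. Timp4 had 23.4, 27.7 and 26.1 CPM in Non surgery and 6.55, 6.71 and 6.57 CPM in Luc, a fall of 3.89-fold. The ratio of Mmp13 to Timp1 CPM was 8.67 ± 0.29 in Non surgery and 15.98 ± 0.58 in Luc, without overlap (exact permutation test, p = 0.1, the smallest possible).

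Hyaluronan, the long sugar chain of joint fluid, is made by the Has enzymes, degraded with the help of Cemip, and bound by Tnfaip6. All 3 steps were represented among the 9 of 10 listed genes that rose. Has1 had 5.51, 6.90 and 5.11 CPM in Non surgery and 66.5, 61.7 and 60.5 CPM in Luc. Cemip went from 9.49 ± 0.94 to 89.5 ± 2.06 CPM and Tnfaip6 from 3.18 ± 0.54 to 31.9 ± 1.87 CPM. These 3 genes thus rose by a similar amount, 3.42, 3.23 and 3.33 on the log2 scale, while the receptor gene Cd44 rose by 0.82 and Hyal1, with 51.9% of its exon bases shared with another gene, did not pass at -0.20.

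Secreted signals that shape skeletal tissue also differed, among them antagonists of Wnt. Wnt proteins favour bone formation, and secreted frizzled-related proteins, Wif1 and Dickkopf proteins keep them from their receptors. Of 11 antagonists 9 rose and 0 fell (median 1.93). Sfrp2 had 9.11, 7.76 and 4.45 CPM in Non surgery and 72.6, 66.8 and 68.9 CPM in Luc, a rise of 3.29 ± 0.12. Wif1 rose from 28.5 ± 1.09 to 158 ± 2.96 CPM, and Dkk1, Frzb and Dkk3 rose by 2.44, 2.10 and 1.96. Of 10 tested Wnt ligands 6 rose and 0 fell (median 0.57). Wnt16, a ligand of cartilage and cortical bone, had 2.22, 2.53 and 1.86 CPM in Non surgery and 11.9, 11 and 10.8 CPM in Luc. Of 7 genes that respond to canonical Wnt signalling, Lef1 rose by 1.29, Nkd2 by 0.62, Nkd1 by 0.58 and Znrf3 by 0.57, and Axin2, the most widely used reporter gene of the pathway, did not pass at 0.22. The call of Nkd1 was lost without Luc replicate 1 or 3, without Non surgery replicate 1 or 3, and with the DESeq2 Wald test.

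In the transforming growth factor beta family, 15 of 16 genes rose (median 0.77), among them the latency protein gene Ltbp3 (1.43) and Tgfb3 (1.27). Tgfb1 itself rose by 0.15. Of 10 bone morphogenetic protein ligand genes 9 rose, and Gdf10 (1.52) and Gdf6 (1.31) did so more than Bmp2 (0.73) and Bmp4 (0.40). Of their 10 tested antagonists 6 rose and 2 fell, with Nbl1 at 2.24 and the activin-binding Fst at -0.62. Igf1, which stimulates matrix synthesis, rose by 1.72 and its binding protein gene Igfbp5 by 1.45. The fibroblast growth factor list was split: Fgfr1 and Fgfr2 each rose by 1.28 and Fgf18, a cartilage growth factor, by 0.98, whereas Fgf1 fell by 1.64 and Fgf13 by 1.08. Of 14 genes for vascular growth factors and endothelial receptors 7 rose and 4 fell, and Vegfa did not pass at -0.09. Tac1, the substance P gene of sensory neurons, had 4, 3 and 4 counts in the Non surgery libraries and 27, 21 and 17 counts in the Luc libraries. The gene for another sensory peptide, Calca, was under the filter and had 7, 11 and 10 counts in Non surgery and 1, 3 and 1 counts in Luc.

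Immediate-early genes encode transcription factors that cells make within minutes of a stimulus through signalling proteins already present. Of 24 tested, 18 rose and 4 fell (median 1.33). Fosb had 2.34, 1.78 and 2.40 CPM in the Non surgery libraries and 530, 540 and 584 CPM in the Luc libraries, the largest rise of any gene named here at 253-fold. Fos had 19.6, 18.6 and 18.6 CPM in Non surgery and 705, 725 and 723 CPM in Luc, and Egr1 had 17.7, 17.5 and 13.9 against 459, 456 and 476. The repeats of each pool lay close together in all 3 genes. Members of one family did not always share a direction. Nr4a2 rose by 3.50 ± 0.10 and Nr4a1 by 1.81, while Nr4a3, the third member of that orphan receptor family, had 36.3, 32.4 and 40.7 CPM in Non surgery and 9.56, 10.4 and 9.75 CPM in Luc. Npas4, an activity-induced factor, fell by 1.36, Myc did not pass at -0.06, and Jun, Junb and Jund rose by 1.38, 2.94 and 1.28, with 52.6% of the exon bases of Jund shared with another gene. The count of falls was 2 rather than 4 with scaling by library size alone. Of 22 rapid feedback regulators, which damp MAP kinase and NF-κB signals, 18 rose and 2 fell (median 0.89). They were led by the phosphatase gene Dusp1 (2.54), the mRNA-destabilising Zfp36 (2.26), the cytokine signalling inhibitor Socs3 (2.13) and Nfkbiz (1.99). Nfkbia, the inhibitor of NF-κB that the factor itself induces, did not pass at -0.06.

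**Figure D2:**
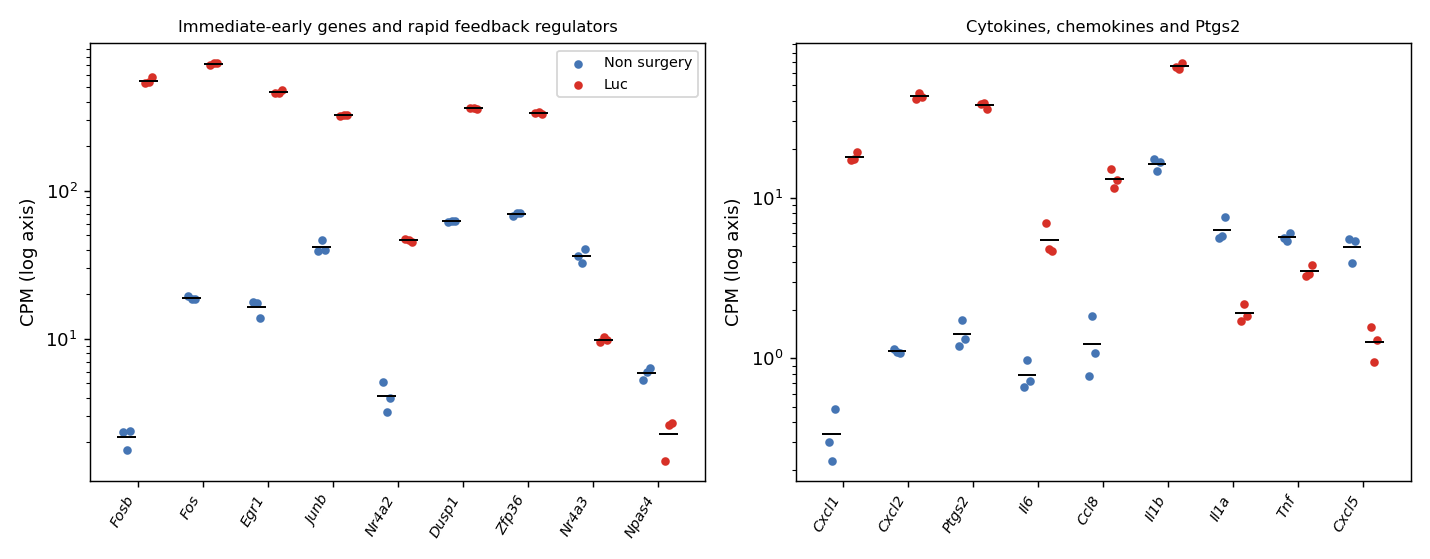
CPM on a log axis for each library (points; blue Non surgery, red Luc; bars are means of 3 libraries) of immediate-early and feedback genes (left) and of cytokines, chemokines and Ptgs2 (right). Fosb goes from 2.17 to 551 CPM, while Nr4a3, Npas4, Il1a, Tnf and Cxcl5 are lower in all 3 Luc libraries.

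Inflammatory mediators did not move as one group. Cxcl1 and Cxcl2, neighbouring genes on chromosome 5 whose proteins draw neutrophils, rose 52.5-fold and 38.6-fold. Cxcl1 had 5, 4 and 8 counts in the Non surgery libraries and 332, 329 and 356 counts in the Luc libraries. Cxcl2 had 1.14, 1.09 and 1.08 CPM in Non surgery and 41.3, 45.2 and 42.2 CPM in Luc. Another ligand for neutrophils, Cxcl5, had 5.51, 3.91 and 5.35 CPM in Non surgery and 1.56, 0.952 and 1.29 CPM in Luc, a log2 fold change of -1.95 ± 0.22. The receptors for these ligands were lower, Cxcr1 by -2.05 and Cxcr2 by -0.77. The interferon-induced ligands Cxcl9 and Cxcl10 rose by 2.24 and 2.31, and Cxcl13, which draws B cells, and its receptor gene Cxcr5 fell by 1.49 and 1.77. In all, 8 of 16 CXC genes rose and 5 fell (median 0.21). Among the 13 tested CC chemokines 8 rose and 3 fell, with Ccl8 (3.39), Ccl7 (3.29) and Ccl2 (2.41), which draw monocytes, highest and Ccl11, which draws eosinophils, at -0.64.

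The stretches just before the RefSeq starts of Cxcl1, Cxcl2 and Il6 are shown because these cytokine genes rose together and because each holds a match to the κB motif that NF-κB proteins recognise, printed in capitals (GRCm38.p6, plus strand, RefSeq, each stopping before the first annotated exon base).
Cxcl1, chr5:90890995-90891240: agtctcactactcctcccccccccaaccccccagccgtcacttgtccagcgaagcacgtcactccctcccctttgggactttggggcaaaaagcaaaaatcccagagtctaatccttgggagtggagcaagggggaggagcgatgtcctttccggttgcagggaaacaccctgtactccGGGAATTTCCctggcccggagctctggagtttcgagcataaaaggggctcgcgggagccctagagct
Cxcl2, chr5:90903649-90903870: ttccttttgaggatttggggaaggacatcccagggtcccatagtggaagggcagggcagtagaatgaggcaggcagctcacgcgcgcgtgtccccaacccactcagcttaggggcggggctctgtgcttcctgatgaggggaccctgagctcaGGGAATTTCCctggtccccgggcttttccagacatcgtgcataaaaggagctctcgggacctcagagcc
Il6, chr5:30012864-30013113: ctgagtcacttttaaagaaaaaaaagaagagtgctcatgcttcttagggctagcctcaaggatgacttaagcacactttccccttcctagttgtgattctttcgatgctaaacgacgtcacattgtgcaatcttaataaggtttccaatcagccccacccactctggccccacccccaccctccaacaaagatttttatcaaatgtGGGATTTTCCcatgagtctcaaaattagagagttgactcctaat
The 10 letters in capitals begin 71 bases before the start of Cxcl1, 97 before that of Cxcl2 and 44 before that of Il6, and are identical in Cxcl1 and Cxcl2. In the 250 bases before the start, on either strand, the motif was found in 4 of 14 CXC genes with a window (Cxcl1, Cxcl2, Cxcl3 and Cxcl10), 1 of 10 CC chemokines (Ccl9), 1 of 10 IL-6 family genes (Il6) and 4 of 18 feedback regulators (Nfkbia, Nfkbie, Tnfaip3 and Ier3), against 4.46% of 27025 genes in the table. Of these holders, Ccl9 fell by 0.20 and Nfkbia did not pass, so a match and a rise did not always go together. A match is a stretch of letters and not a measured binding site.

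Ptgs2, the inducible cyclooxygenase of prostaglandin synthesis, had 1.20, 1.73 and 1.32 CPM in Non surgery and 38.4, 39.0 and 35.6 CPM in Luc. Of all 17 tested prostaglandin genes 8 rose and 5 fell, the terminal synthase gene Ptges rose by 0.84, and the constitutive Ptgs1 did not pass at -0.10. The 5 falls were 3 with scaling by library size alone. In the IL-6 family 9 of 12 genes rose and 1 fell. Il6 had 0.659, 0.978 and 0.721 CPM in Non surgery and 6.91, 4.81 and 4.63 CPM in Luc, Osm rose by 1.84 and Il11 by 1.22, and Ctf1 fell by 1.06. The interleukin-1 list split evenly, 5 higher and 5 lower of 11. Il1b rose from 16.2 ± 1.39 to 65.8 ± 2.84 CPM, whereas Il1a had 5.58, 5.75 and 7.63 CPM in Non surgery and 1.72, 2.17 and 1.83 CPM in Luc. The decoy receptor gene Il1r2, made by neutrophils, fell by 1.96 and the co-receptor gene Il1rap by 1.27. Tnf had 5.63, 5.35 and 6.07 CPM in Non surgery and 3.27, 3.33 and 3.83 CPM in Luc, so that this main inflammatory cytokine gene was lower in every Luc library.

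Genes for antigen presentation and complement were modestly higher. Of 8 genes of the MHC class II pathway, 7 rose (median 0.89), led by H2-Ab1 with 71.3, 79.2 and 77.1 CPM in Non surgery and 180, 182 and 179 CPM in Luc. The transactivator gene Ciita did not pass at 0.10. Genes induced by interferon rose in 15 of 22 cases and fell in 3 (median 0.47). The guanylate-binding genes Gbp2 (1.61) and Gbp3 (1.29) were highest, and Mx1 (-0.77), Rsad2 (-0.49) and Isg15 (-0.42) were lowest. Of 16 tested complement genes 10 rose and 1 fell (median 0.65), among them C1s1 (1.24), C4b (1.04) and the inhibitor gene Serping1 (0.999), while the central component C3 was at 411 and 410 CPM.

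Blood-forming lineages of the marrow differed from one another in direction. All 9 B cell precursor genes rose, 7 of them at least 2-fold (median 2.71). Rag1, a part of the recombinase that assembles antibody genes, had 4.02, 3.05 and 3.36 CPM in Non surgery and 46.9, 46.7 and 45.6 CPM in Luc. Rag2 had 8, 4 and 4 counts in Non surgery and 84, 85 and 78 counts in Luc. The surrogate light chain genes Vpreb1 and Igll1, found only in precursors, rose by 3.92 ± 0.18 and 4.19 ± 0.13. Genes shared by precursors and later B cells rose less, with Ebf1 at 1.52 and Cd79a at 0.96. The mature B cell list was split, with 5 of 9 genes lower and 3 higher (median -0.40), and its summed level overlapped between groups, at 229 to 239 CPM in Non surgery and 224 to 231 CPM in Luc. The 3 that fell at least 2-fold are typical of naive B cells. Fcer2a (CD23) had 24.8, 23.6 and 20.7 CPM in Non surgery and 4.63, 5.23 and 4.53 CPM in Luc, the complement receptor gene Cr2 fell by 1.92, and Ighd, the immunoglobulin D constant gene, by 1.44. Between 1 precursor gene and 1 of these 3 genes, the ratio of Rag1 to Fcer2a CPM was 0.15 ± 0.02 in Non surgery and 9.72 ± 0.68 in Luc (exact permutation test, p = 0.1, the smallest possible). Antibody gene segments together took 0.35% ± 0.01 of gene counts in Non surgery and 0.29% ± 0.003 in Luc.

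**Figure D3:**
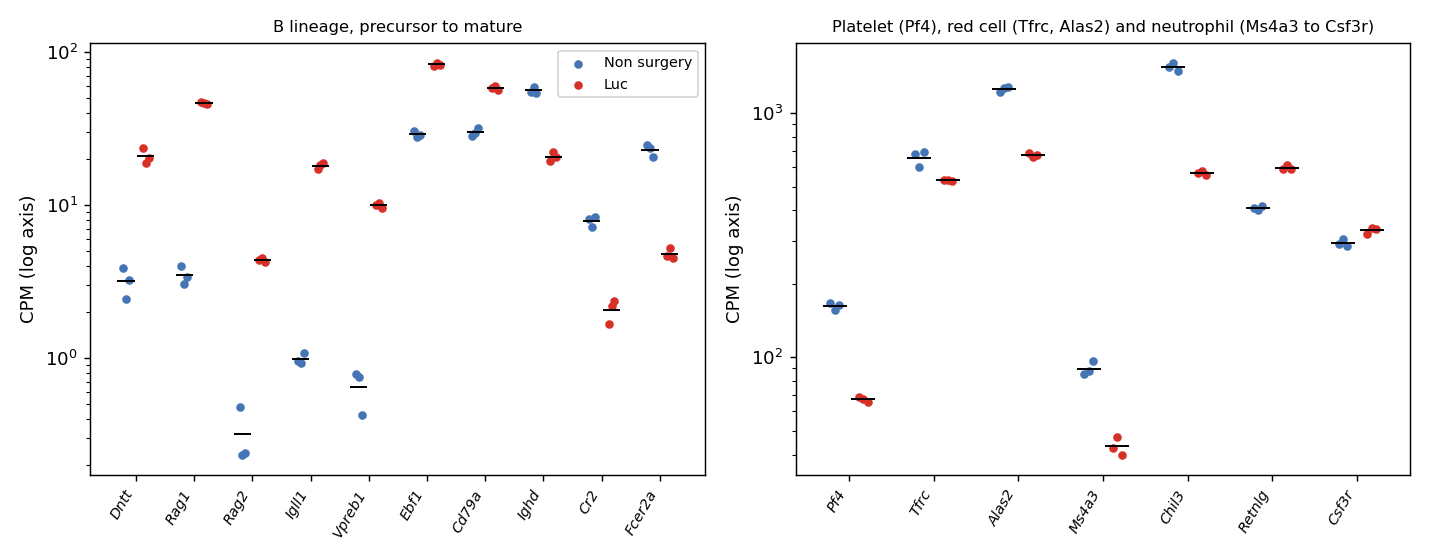
CPM on a log axis for each library (points; blue Non surgery, red Luc; bars are means of 3 libraries) of B lineage genes ordered from precursor to mature (left) and of platelet, red cell and neutrophil genes (right). Red lies above blue from Dntt to Cd79a and below it from Ighd to Fcer2a, and on the right only Retnlg and Csf3r are higher in Luc. Ighd, Cr2 and Fcer2a are the 3 of 9 mature B cell genes that fell at least 2-fold, and 3 genes of that list rose.

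All 9 genes of megakaryocytes and platelets fell, each at least 2-fold. Pf4, a platelet chemokine, had 167, 157 and 163 CPM in Non surgery and 68.6, 67.7 and 65.6 CPM in Luc, a log2 fold change of -1.27 ± 0.040. Among the erythroid genes, 11 of 12 fell (median -0.65), from -0.31 for the transferrin receptor gene Tfrc to -0.90 for the haem synthesis gene Alas2. Car1 did not pass at 0.03. All 5 primary granule genes and all 7 secondary granule genes of neutrophils fell, with medians of -0.74 and -0.42. Ms4a3, a marker of granulocyte progenitors, had 85.2, 87.5 and 96.8 CPM in Non surgery and 42.7, 47.2 and 39.7 CPM in Luc, and Chil3 fell by 1.44. Among mature neutrophil genes 5 of 7 fell and 2 rose, Retnlg by 0.55 and Csf3r by 0.17. The megakaryocyte list had a median of -1.64 and the mature neutrophil list one of -0.35, and differences between the lists were not tested. Summed megakaryocyte markers lay at 1304 to 1346 CPM in Non surgery and 438 to 451 CPM in Luc, and summed erythroid markers at 6989 to 7129 and 4395 to 4478 CPM.

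Macrophage genes did not share a direction. Of 10 genes of resident macrophages, 7 fell and 3 rose. Timd4 had 4.08, 5.35 and 4.27 CPM in Non surgery and 0.676, 0.952 and 1.19 CPM in Luc, the haemoglobin scavenger gene Cd163 fell by 1.79 and Vcam1, also made by marrow stroma, by 1.42, while Lyve1 rose by 0.76. Cx3cr1, which marks macrophages of the synovial lining, rose by 1.44 and Spp1 by 0.96, and Gpnmb fell by 1.16. Of 6 monocyte genes 2 rose and 2 fell, and the median of -0.05 turned to 0.11 with scaling by library size alone. Their summed level was 776 to 811 CPM in Non surgery and 886 to 892 CPM in Luc. Eosinophil genes rose in 5 of 7 cases (median 1.33). Epx, the granule peroxidase, had 105, 120 and 104 CPM in Non surgery and 289, 287 and 287 CPM in Luc, Alox15 rose by 1.66, and Ccr3, the eotaxin receptor, fell by 0.66. Of 8 tested mast cell genes 5 fell and 0 rose, led by Ms4a2 (-1.39) and Hdc (-1.02). Of 13 T and NK cell genes, 6 fell and 1 rose, with Cd4 at -1.63, Cd8b1 at -1.12 and Gzma at 1.29.

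Skeletal muscle genes were lower throughout, and unevenly so by fibre type. All 8 myosin heavy chain genes fell at least 2-fold. Myh4, the myosin of the fastest fibres, had 17330, 17660 and 17670 CPM in Non surgery and 8120, 7939 and 8082 CPM in Luc, a fall of 2.18-fold. Myh2, the myosin of fast oxidative fibres, had 2197, 2169 and 2103 CPM in Non surgery and 166, 164 and 170 CPM in Luc. Myh7, the myosin of slow fibres, had 95.6, 105 and 87.7 CPM in Non surgery and 3.07, 2.33 and 2.64 CPM in Luc. The order of the falls followed the oxidative character of the fibre, with Myh4 at -1.12, Myh1 at -2.13, Myh2 at -3.70 and Myh7 at -5.16. Within a library the ratio of Myh2 to Myh4 was 0.12 ± 0.004 in Non surgery and 0.021 ± 0.0003 in Luc, and that of Myh1 to Myh4 0.32 ± 0.01 and 0.16 ± 0.002 (exact permutation tests, each p = 0.1, the smallest possible).

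**Figure D4:**
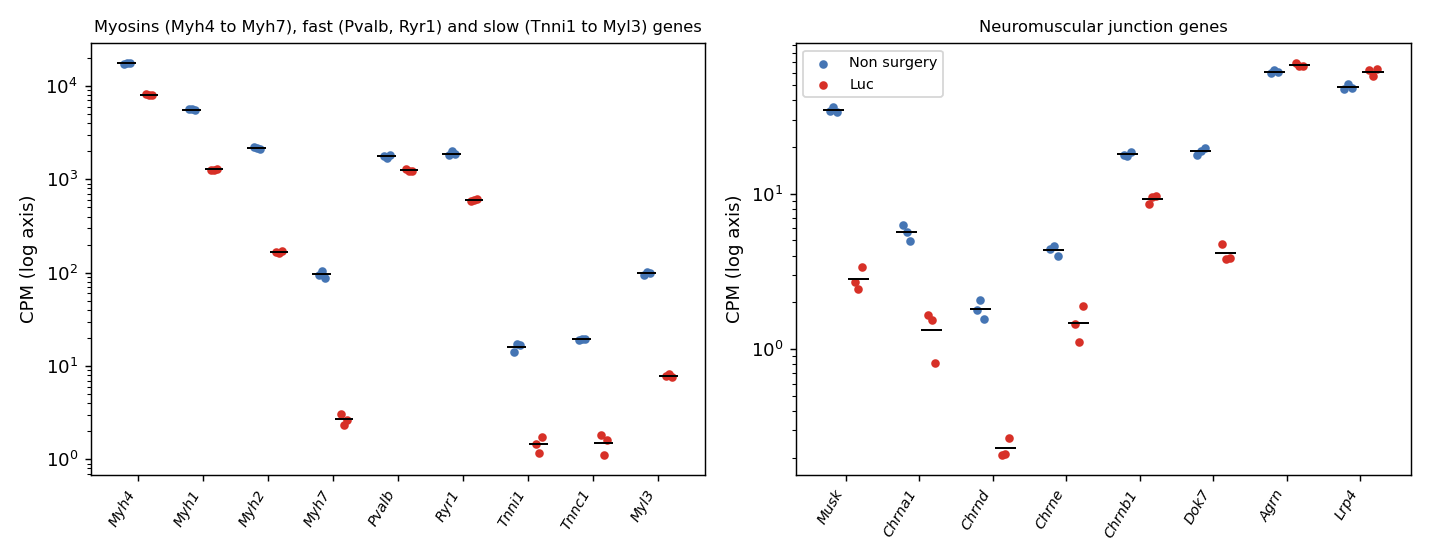
CPM on a log axis for each library (points; blue Non surgery, red Luc; bars are means of 3 libraries) of fast and slow muscle genes (left) and of genes of the neuromuscular junction (right). Myh4 and Pvalb are lower by 2.18-fold and 1.41-fold, Myh2, Myh7 and Myl3 by 12.96-fold, 35.8-fold and 12.4-fold, and Agrn and Lrp4 are slightly higher in Luc.

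All 13 fast fibre genes fell (median -1.18), between -0.50 for the calcium buffer Pvalb and -1.65 for the calcium release channel Ryr1. All 11 slow fibre genes fell (median -2.95). The summed lists differed less than these medians, with a ratio of slow to fast CPM of 0.080 ± 0.0017 in Non surgery and 0.071 ± 0.0007 in Luc. Few genes set the slow sum. In Non surgery Mybpc1 had 1631 CPM of a summed 2686 to 2713 CPM. In Luc Mybpc1 and Tpm3 had 399 and 394 CPM of a summed 1029 to 1065 CPM. Myl3, a slow myosin light chain, fell from 98.5 ± 2.97 to 7.92 ± 0.30 CPM, Tnni1 and Tnnc1, the slow troponins, by 3.47 and 3.66, and Tpm3, which other cells also make, by 0.14. At the neuromuscular junction 9 of 11 tested genes fell and 2 rose. Musk, the receptor kinase that gathers acetylcholine receptors, had 34.2, 36.0 and 33.5 CPM in Non surgery and 2.70, 2.43 and 3.40 CPM in Luc, and its adaptor gene Dok7 fell by 2.18. The receptor subunit genes Chrnd, Chrna1, Chrne and Chrnb1 fell by 2.95, 2.07, 1.54 and 0.96. The nerve-derived signal Agrn and its receptor Lrp4, which bone and other tissues also express, rose by 0.15 and 0.33. The fetal subunit gene Chrng, which returns when muscle loses its nerve, had 0 to 2 counts in every library. Of 15 tested genes of muscle atrophy, 13 fell and 1 rose, including the ubiquitin ligase genes Trim63 (-1.92) and Fbxo32 (-0.57). Of 5 heart markers, Nppa had 0 to 2 counts and Myl7 0 counts in each library, and of the 3 tested 1 rose, 1 fell and 1 did not pass. Their summed level was 19.4 to 20.7 CPM in Non surgery and 24.0 to 26.4 CPM in Luc, and its part in the muscle results was not tested.

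Fuel genes were lower as well. All 15 genes of glycogen and glycolysis fell (median -1.26), and Ppp1r3c, a subunit that targets phosphatase to glycogen, fell furthest, from 535 ± 15.3 to 42.5 ± 1.90 CPM. Of 23 genes of fatty acid oxidation and fasting, 21 fell and 1 rose (median -1.09). Pdk4, which blocks glucose oxidation during fasting, had 2296, 2231 and 2233 CPM in Non surgery and 254, 254 and 252 CPM in Luc. Ucp3, a muscle uncoupling protein, fell by 3.39, the lipid-sensing receptor gene Ppara by 3.58 and the mitochondrial co-activator gene Ppargc1a by 2.79. Enzymes of beta oxidation fell less, with Acadl at -1.06, Acadm at -1.09 and Hadha at -0.95, and the liver-type Cpt1a did not pass at -0.07.

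Of 15 tested genes of the mitochondrial genome, 9 fell and 0 rose (median -1.01). The large transcripts fell evenly, with mt-Co1 at -1.05, mt-Cytb at -0.995 and mt-Nd4 at -1.01. The other 6 did not pass and varied widely between repeats. mt-Co3, chosen after its values were seen, had 815, 411 and 176 CPM in Non surgery and 2074, 39.97 and 645 CPM in Luc, and the pattern of high and low repeats was the same in mt-Co2, mt-Atp6 and mt-Nd3. Since these are repeats of 1 RNA pool, that spread is technical. In the mitochondrial genome list 6 genes were called higher without the filter on low counts and 2 without Luc replicate 2, so no direction is given for those that did not pass.

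Fat genes were divided. Of 14 tested adipocyte genes 7 fell and 3 rose. Plin4 had 421, 458 and 423 CPM in Non surgery and 72.5, 73.4 and 80.3 CPM in Luc, and Lep, the gene for leptin, fell from 9.38 ± 0.91 to 2.55 ± 0.35 CPM. Adipoq, by contrast, rose by 0.76 and the lipid droplet gene Plin1 by 1.20. Among 12 genes of fatty acid synthesis 7 rose and 4 fell, Elovl6 highest at 1.11 and Acacb, the muscle and heart form of acetyl-CoA carboxylase, lowest at -1.84. Of 17 sterol synthesis genes 12 rose and 3 fell (median 0.30), among them Idi1 (1.35) and Cyp51 (1.09).

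Genes that glucocorticoid hormones induce were mostly lower. Of 16 tested, 12 fell and 3 rose (median -0.85). Fkbp5, a chaperone widely used to read out glucocorticoid action, had 213, 207 and 213 CPM in Non surgery and 43.2, 45.1 and 45.8 CPM in Luc. Zbtb16 fell by 2.86 ± 0.08, Klf15 by 1.81, Ddit4 by 1.49 and Tsc22d3 by 1.38. Dusp1, which hormones and growth stimuli both induce, was the largest exception at 2.54. Errfi1 rose by 0.84 and the receptor gene Nr3c1 by 0.26, and Sgk1 did not pass at -0.02. Muscle also expresses several of these genes, and in the same libraries all 13 fast fibre markers fell, from a summed 32860 to 34490 CPM in Non surgery to 14670 to 14920 CPM in Luc. The part of that fall in this result was not tested.

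**Figure D5:**
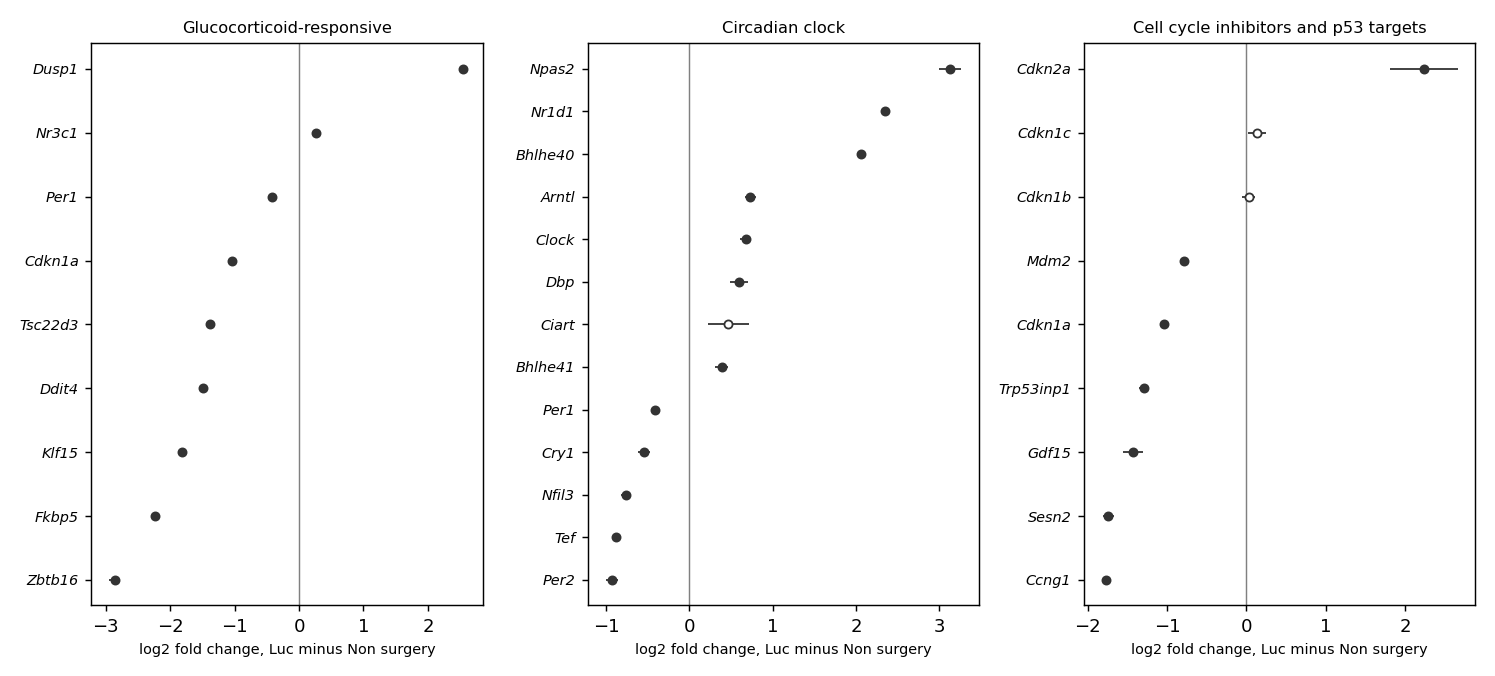
Log2 fold change (Luc minus Non surgery, horizontal axes) with its standard error (bars, hidden by the point where small) for members of 3 lists that the text names. Errfi1 and Sgk1 are not drawn. Filled points passed an adjusted p of 0.05. Most glucocorticoid-responsive genes and p53 targets drawn lie left of 0, and clock genes lie on both sides, with Npas2 at 3.13 and Per2 at -0.93.

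Clock genes changed in opposed directions. The core clock is a loop in which Clock or Npas2 with Arntl activate the Per, Cry and Nr1d genes, whose products shut the activators off. Of 19 genes 7 rose and 9 fell, and the median of -0.10 became 0.06 with scaling by library size alone. The activators rose: Npas2 had 2.94, 1.61 and 2.40 CPM in Non surgery and 20.1, 19.7 and 21.1 CPM in Luc, and Arntl and Clock rose by 0.73 and 0.68. Among the repressors, Nr1d1 had 20.6, 21.2 and 22.9 CPM in Non surgery and 109, 107 and 112 CPM in Luc, and Bhlhe40 rose by 2.06, while Per2 fell by 0.93, Cry1 by 0.55 and Per1 by 0.42. The output factors were split as well, with Dbp at 0.59, Tef at -0.88 and Nfil3 at -0.76. The labels do not state at what time of day joints were taken.

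The E-box CACGTG, to which the Clock and Arntl proteins bind, is shown in capitals in the windows of 2 repressor genes that fell, with 40 bases on either side (GRCm38.p6, RefSeq; Per1 on the plus and Cry1 on the minus strand).
Per1, chr11:69098743-69098828: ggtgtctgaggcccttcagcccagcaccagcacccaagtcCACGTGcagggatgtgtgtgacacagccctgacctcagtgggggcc
Cry1, chr10:85185069-85185154: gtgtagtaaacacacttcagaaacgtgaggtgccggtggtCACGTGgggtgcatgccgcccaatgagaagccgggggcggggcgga
CACGTG reads the same on both strands and stood in the 250 bases before the start of 5 of 16 clock genes with a window (Per1, Cry1, Tef, Bhlhe41 and Ciart), against 6.86% of 27025 genes. Of the 5, Per1, Cry1 and Tef fell, Bhlhe41 rose by 0.39 and Ciart did not pass at 0.47.

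Genes that restrain the cell cycle or that p53 induces were lower in 11 of 15 cases and higher in 1 (median -1.02) and 8 of the falls at least 2-fold. Ccng1, a direct p53 target, had 754, 621 and 701 CPM in Non surgery and 211, 200 and 201 CPM in Luc. The stress sensor gene Sesn2 had 62.5, 70.0 and 68.0 CPM in Non surgery and 18.8, 18.8 and 22.5 CPM in Luc. Gdf15 fell by 1.43, Trp53inp1 by 1.29, Cdkn1a by 1.04 and Mdm2 by 0.79. Cdkn2a, whose p16 product marks senescent cells, went the other way, with 5, 4 and 4 counts in the Non surgery libraries and 27, 19 and 24 counts in the Luc libraries. That is 4.82 times as many for the depth (95% exact counting interval 2.64 to 9.49), from a low level. Cdkn1b and Cdkn1c did not pass.

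All 7 listed genes of DNA replication rose slightly and all 10 of mitosis fell slightly, none by 2-fold. Mcm6, a part of the replication helicase, had 123, 126 and 130 CPM in Non surgery and 173, 177 and 172 CPM in Luc. Mki67, which marks dividing cells, had 1368, 1331 and 1329 CPM in Non surgery and 953, 948 and 948 CPM in Luc. The ratio of summed replication to summed mitosis genes was 0.34 ± 0.01 in Non surgery and 0.58 ± 0.01 in Luc (exact permutation test, p = 0.1, the smallest possible). Of 18 ribosome biogenesis genes 6 fell and 1 rose, but with scaling by library size alone 8 rose and the median of -0.07 became 0.10, so the list has no firm direction.

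Antioxidant genes, many of them targets of NRF2, fell in 8 of 11 cases and rose in 1 (median -0.63). Hmox1, the haem-degrading enzyme, had 562, 575 and 590 CPM in Non surgery and 188, 181 and 194 CPM in Luc. Srxn1 fell by 1.35 and Sod2 by 1.17, and Gpx3, a secreted glutathione peroxidase, rose from 483 ± 15.2 to 1020 ± 6.43 CPM. Heat-shock and endoplasmic reticulum stress genes moved little apart from the small chaperone gene Hspb1, abundant in muscle, which fell by 1.94. Their median was -0.11 and turned to 0.05 with scaling by library size alone.

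Positional and imprinted genes were higher in part. Of 14 tested hindlimb and positional factors 10 rose and 2 fell (median 0.70). Pitx1, which specifies the hindlimb, had 4.5, 4.66 and 3.06 CPM in Non surgery and 14.03, 11.9 and 14.9 CPM in Luc, Tbx4 rose by 0.97, and Hoxa13, a gene of the paw region, fell by 1.20. Of 10 tested imprinted genes 7 rose at least 2-fold and 1 fell. Plagl1 (1.89) and the non-coding RNAs Rian (1.75) and Meg3 (1.58) rose, and H19 fell from 94.8 ± 4.51 to 51.4 ± 2.45 CPM. Among 16 subunits of Polycomb repressive complex 1, 9 rose and 2 fell, led by Pcgf2 at 1.12, with Cbx7 at -0.27.

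Markers of vessels in the sample moved less than those of matrix or muscle. Of 10 endothelial markers 8 rose and 2 fell (median 0.44), and their summed level was 466 to 483 CPM in Non surgery and 576 to 586 CPM in Luc. Of 9 smooth muscle and pericyte markers 6 rose and 1 fell, led by Cspg4 (1.77) and Mcam (1.02), which chondrocytes and other mesenchymal cells also express. Among protein-coding genes that averaged 5 CPM or more in 1 of the groups, the 10 largest rises and 10 largest falls also held a few outside the lists. C1qtnf3, a secreted protein of cartilage and fat, had 3.66, 3.28 and 4.63 CPM in Non surgery and 66.1, 67.8 and 69.5 CPM in Luc. Odf3l2 had 53.2, 59.2 and 56.5 CPM in Non surgery and 2.29, 2.22 and 1.94 CPM in Luc, a fall of 26.1-fold. Fam107a, a stress- and glucocorticoid-responsive gene, fell by 3.64 and Lrrc52, which encodes a potassium channel subunit, by 4.66, from 125, 99 and 100 counts to 8, 2 and 4 counts.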

How the data were processed

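Whole mouse knee joint RNA was extracted with TRIzol and made into libraries with a NEBNext Ultra RNA kit, per the labels' protocols. The authors deposited raw counts per gene for each library. HISAT2, HTSeq, DESeq2 and the build mm10 are named in the submitters' processing notes, with no versions used here. Neither annotation release nor strand setting is stated in the labels. Whether reads of overlapping genes on opposite strands were kept apart is therefore not known. Each table held 53379 gene IDs, of which 53274 matched GENCODE M21, and 5 summary lines that were left out of library sizes.

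Counts of all 9 libraries (3 groups of 3) were fitted with edgeR 4.0.16 in R 4.3.3, using TMM factors, filterByExpr with a minimum count of 10 and quasi-likelihood tests of Luc minus Non surgery with Benjamini-Hochberg adjustment over 17478 genes. The SE of a log2 fold change is its size divided by the root of F. Ratios between genes were compared with exact permutation tests and were chosen after seeing the data. Counting intervals cover counting error only. The fit was tested on simulated data for this comparison over 16594 genes: 92% of 1.5-fold and 90% of 2-fold changes were recovered, and 11 unchanged genes were called. The simulation held 6 libraries rather than 9, with 50 genes changed at 1.5-fold and 50 at 2-fold, none of low level. In the data 58.8% of genes were called. The simulation therefore does not test the scaling, or the number of false calls, under differences this wide. Genes with few counts have wide counting intervals. DESeq2 1.42.0 and other scalings, filters and libraries left out served as alternatives. Promoter windows came from RefSeq on GRCm38.p6. Motifs were counted in the full 250 bases before each start, and only the printed sequences stop before the first annotated exon base.

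The members of each list, and the lists themselves, were chosen with earlier results of these data known. Some genes stand in more than 1 list, so the counts of different lists are not independent. Named genes were the 10 largest rises and 10 largest falls among called protein-coding genes that averaged 5 CPM or more in 1 of the groups and whose libraries were fully separated, up to 4 members of each list with the largest changes past the threshold, and a fixed set of known joint genes. Other members are named as the rest of a count or were chosen after their values were seen. Some members of the lists are counted but not reported here by name.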

Additional observations from a re-analysis of the deposited data

Results flagged for a closer look

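Reads that HTSeq placed outside annotated genes enter no comparison of genes above. Of gene counts and summary lines together, they made up 9.08% ± 0.18 (SD, n = 3) in the Luc libraries and 7.33% ± 0.04 in the Non surgery libraries. They stand here because their share was higher in the operated joints than in the unoperated joints. The PC2 libraries had 8.11% ± 0.06. Reads that HTSeq set apart as ambiguous between genes went the other way, with 5.81% ± 0.15 in Luc and 6.52% ± 0.12 in Non surgery.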

How the results depend on the processing

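The naming rule above picked 341 genes, all past the threshold. All 341 kept their direction, and 333 kept their call, under every alternative in which single genes were compared. The other 8 (Klrb1c, Mpzl2, Ms4a6c, Myod1, Myog, Ncmap, Nkd1 and Xbp1) lost their call under at least 1. Further members that the text names outside this rule were not part of that comparison. An edgeR test against a 1.5-fold limit (glmTreat) was also run, and the calls of named genes were not compared under it. The median log2 fold change of all genes was 0.0249, and was 0.0039 with DESeq2's size factors, 0.1851 with library size only, 0 without the filter, 0.019 with sizes computed without muscle and mitochondrial genes, 0.0257 with the replicate block, 0.0157 to 0.0232 with 1 library left out, and -0.0049 with the 6 libraries alone. A fold limit of 1.5 gave 4906 genes (2724 higher, 2182 lower). With library size only, list medians turned to 0.107 for monocyte, 0.06 for circadian clock, 0.095 for ribosome biogenesis and 0.05 for heat-shock genes. The cause was not tested. The 2-fold count was 2752, 2646 with the DESeq2 Wald test and 2770 to 2813 with 1 library left out. Same-numbered libraries did not deviate together (correlations 0.0385, -0.0181 and 0.00587), so the numbers do not pair them. The fit with the replicate block called 2745 genes at 2-fold and 10327 past the adjusted p. Depth limits genes with few counts, such as Gdf5 and Cdkn2a. With 1 pool a group, no alternative bears on differences between mice.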
